A study of Homo sapiens with 16 samples.

Results

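The SR proteins are splicing factors encoded by a small gene family, and 10 of its genes were followed here: SRSF1, SRSF2, SRSF3, SRSF4, SRSF5, SRSF6, SRSF7, SRSF9, SRSF10 and SRSF11. They were listed by name, with earlier results of these data known. The 10 genes were 10 of 35052 genes with matched transcripts, and their 107 annotated transcripts were 107 of the 177456 in each table. Estimated reads were summed over each gene's transcripts, and each transcript was also expressed as a share of its gene's reads. The samples were K562 cells, a human chronic myeloid leukaemia line with erythroid features, of wild-type genotype. Cells received 25 nM phorbol myristate acetate (PMA), an activator of protein kinase C under which K562 cells take on megakaryocyte features, and RNA was taken before treatment (0 h), after 0.5, 1.5, 3 and 6 h, and again after 24, 48 and 72 h, with medium changed after 24 and 48 h. Libraries were made from total RNA depleted of ribosomal RNA, 2 for each time point and 16 in all. Nothing in the labels says that the 2 libraries of a time point came from separate cultures, so p-values measure only the spread between these samples, which may be technical. Medium changes and time in culture ran with PMA exposure, and no untreated library was taken after 0 h, so their effects cannot be told apart from that of PMA.

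Each SR protein has an RNA-binding part built of RNA recognition motifs and a domain rich in arginine and serine. The proteins bind exons and help to define splice sites, and phosphorylation of the arginine and serine repeats by the SRPK and CLK kinases governs their place in the nucleus and their activity. Many SR genes limit their own output by splicing: a poison exon or a retained or newly spliced intron gives an mRNA that is kept in the nucleus or removed by nonsense-mediated decay, a pathway that degrades mRNAs whose stop codon lies well upstream of the last exon junction.

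The transcripts on which the results turn differ by short stretches of sequence. GENCODE 29 classes the 107 transcripts as 39 protein coding, 28 retained intron, 22 nonsense-mediated decay and 18 processed transcript. Coordinates are on GRCh38, sequences run 5′ to 3′ along the transcript, and capitals mark the first in-frame stop codon. The first set shows where an added exon or kept intron ends the reading frame early. SRSF6-202 carries a cassette exon of 268 bases (chr20:43459153-43459420, plus strand) that SRSF6-201 skips. Its stop lies 152 bases into the exon and 534 bases before the last junction, and leaves 135 codons in place of 344.
SRSF6-202: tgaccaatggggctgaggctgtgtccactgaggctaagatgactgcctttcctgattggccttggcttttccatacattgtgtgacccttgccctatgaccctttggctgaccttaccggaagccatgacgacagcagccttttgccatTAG
SRSF3-203 includes an exon of 456 bases (chr6:36599821-36600276, plus strand) absent from SRSF3-202, and the frame ends after 34 of them, 548 bases before the last junction.
SRSF3-203: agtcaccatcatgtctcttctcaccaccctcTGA
SRSF7-208 keeps 875 bases (chr2:38748654-38749528, minus strand) that SRSF7-202 splices out. The 30 bases up to its stop, chr2:38749516-38749545, are shown.
SRSF7-208: cggcgaagaagaagcaggtatttatttTAA
SRSF1-206 extends an exon by 37 bases (chr17:58006907-58006943, minus strand) and stops after 65 codons, 391 bases before the last junction. The 30 bases up to its stop, chr17:58006940-58006969, are shown.
SRSF1-206: gccttcgttgagttcgaggacccgcggTGA
SRSF5-212 keeps an intron of 1215 bases (chr14:69769252-69770466, plus strand) and has no annotated coding region. Read from the start codon of SRSF5-217, it stops 9 bases into the intron, after 124 codons.
SRSF5-212: gtttgtTGA

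The next sequences show transcript pairs that are both annotated as protein coding. SRSF1-201 encodes 248 codons. SRSF1-205 keeps the last intron of 200 bases (chr17:58005601-58005800, minus strand), reads 54 bases into it and ends after 201 codons, with no exon junction after its stop.
SRSF1-205: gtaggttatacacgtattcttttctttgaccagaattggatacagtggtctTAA
SRSF2-202 and SRSF2-203 encode the same 221 codons. They part within the 30 bases shown, at an intron of 995 bases in the 3′ untranslated region (chr17:76735159-76736153, minus strand) that SRSF2-202 splices out and SRSF2-203 keeps.
SRSF2-202: cctctTAAgaaaatgatgtatcggcaagca
SRSF2-203: cctctTAAgaaaatggtaatgtctgggaat
SRSF10-203 (261 codons) and SRSF10-207 (182 codons) end in different last coding exons. That of SRSF10-203, 298 bases up to the stop (chr1:23971142-23971439, minus strand), encodes further arginine and serine repeats. That of SRSF10-207 has 61 bases up to the stop (chr1:23967663-23967723, minus strand).
SRSF10-203: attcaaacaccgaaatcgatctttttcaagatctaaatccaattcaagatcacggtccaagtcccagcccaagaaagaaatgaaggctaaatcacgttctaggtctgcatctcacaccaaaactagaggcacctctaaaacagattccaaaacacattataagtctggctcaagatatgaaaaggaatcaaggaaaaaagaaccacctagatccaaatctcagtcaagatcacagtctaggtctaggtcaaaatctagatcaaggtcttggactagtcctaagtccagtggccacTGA
SRSF10-207: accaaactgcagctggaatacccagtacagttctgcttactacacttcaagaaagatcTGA

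**Figure D1:**
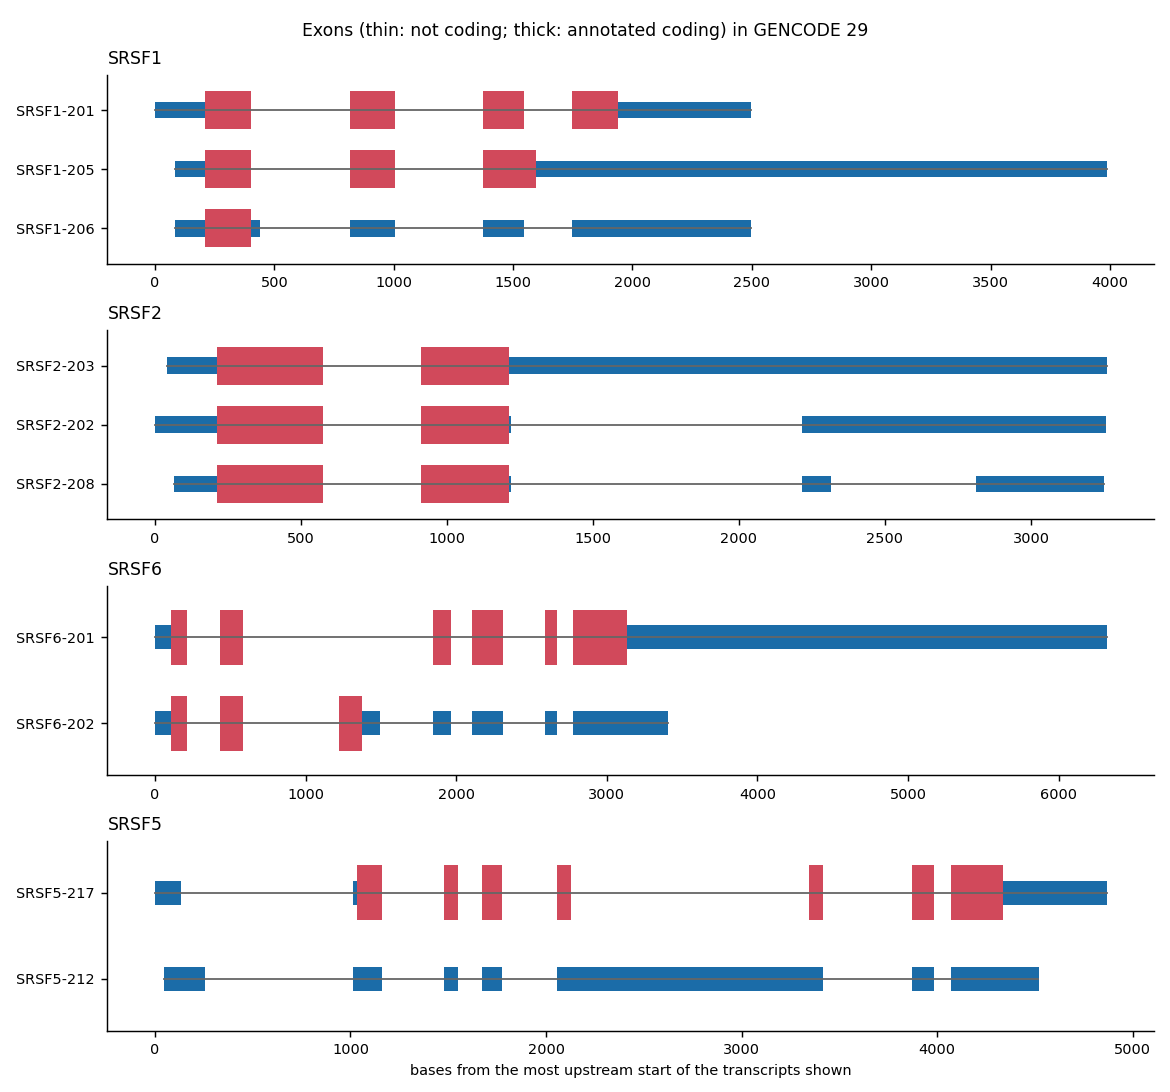
Exon models of the main transcripts of SRSF1, SRSF2, SRSF6 and SRSF5 in GENCODE 29. The horizontal axis is the distance in bases from the most upstream start of the transcripts shown for that gene. Thin boxes are exon sequence that is not coding, thick boxes are annotated coding sequence and lines are introns. SRSF1-205 runs through the last intron of SRSF1-201, SRSF2-202 splices the 995-base intron of the 3′ untranslated region, SRSF6-202 has 1 extra exon, and SRSF5-212 keeps the 1215-base intron.

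The libraries held 27285773 to 54056289 estimated reads, and gene levels are given as CPM, the usual scaling of reads to library size, adjusted by TMM factors. The second 0 h library stood apart: its fragments were shorter, by their effective lengths, than those of every other second replicate, and the log2 difference between the 0 h libraries went with GC content (Pearson r = -0.73 across genes, which are not independent replicates). Fold changes at 0.5 h (r = -0.76) and 1.5 h (r = -0.42) also went with GC content, so the main gene-level values at 1.5 to 6 h, and the calls that were lost without that library, are also given without it. Single values of genes outside the 10 are given with it only. Summed CPM of 10 erythroid and K562 marker genes was 2084 to 2405 at 0 h and 1579 to 2028 at 72 h. That of 11 megakaryocyte markers went from 60.7 to 70.6 at 0 h to 5403 to 6213 at 72 h, while PF4 and GP9 had at most 1 read in any library. Lymphocyte markers summed to 12.9 to 26.0 CPM, with at most 1 read of MS4A1 and 2 of CD2, monocyte markers to 130 to 244 CPM, and fibroblast and epithelial markers to at most 589.6 CPM at 0 h and at least 3212 at 72 h. The part of these shifts in the SR gene results was not tested. A change in the share of cells that express a gene and a change in its RNA per cell cannot be told apart in these bulk libraries.

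SR gene levels formed a pulse that was highest at 3 to 6 h and had gone back by 24 h for most of the genes. At 6 h, 8 of the 10 genes had risen by 1.58-fold to 3.02-fold over 0 h and none had fallen, where 57.2% of all 17559 genes tested were called, 27.8% as higher and 29.4% as lower (edgeR quasi-likelihood test, Benjamini-Hochberg adjusted p under 0.05, as for all gene calls below). From 6 to 24 h, 9 of the 10 fell and none rose, where 56.6% of all genes were called, 25.8% as lower and 30.8% as higher. SRSF7 and SRSF9 were the genes that did not pass at 6 h, and SRSF9 was the gene that did not fall to 24 h. Over the whole course 9 of 10 changed, against a background of 82.9%, with SRSF9 at adjusted p = 0.0626 (edgeR).

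The rise built up gradually. None of the 10 passed at 0.5 h (0.171% of all genes did, 0.165% higher and 0.0057% lower), although DESeq2 called 1 (0.689% of all genes). At 1.5 h 5 had risen and none had fallen (17.1% of all genes, 9.05% higher and 8.05% lower), and at 3 h 6 had risen and none had fallen (42%, 21.5% and 20.5%). The median log2 fold change of the 10 genes was 0.26 after 0.5 h, 0.43 after 1.5 h, 0.60 after 3 h and 0.74 after 6 h, against medians of -0.03 to 0.00 over all genes. These medians include 0 h replicate 2, and the early ones lean on it. Without that library the values ran from -0.09 (SRSF4) to 0.31 (SRSF5) at 0.5 h. At 1.5 h they then ran from -0.05 (SRSF9) to 0.85 (SRSF6), with SRSF1 at 0.36, SRSF10 at 0.13 and SRSF11 at 0.02. Late in the course few calls remained: 3 genes higher and 1 lower than at 0 h after 24 h (58.3% of all genes, 31.7% and 26.6%), 2 and 1 after 48 h (54.3%, 30.2% and 24.1%), and 1 and 2 after 72 h (58.6%, 31.7% and 26.9%). These comparisons share the 0 h libraries, so they are not independent of each other. Without 0 h replicate 1, 6 of the 10 passed at 0.5 h, as did 19.9% of all genes. Without 0 h replicate 2, 3 passed after 1.5 h (5.58% of all genes), 5 after 3 h (33.7%) and 8 after 6 h (50.8%). When libraries were scaled to their totals in place of TMM, the median of all genes moved to -0.35 after 6 h and -0.26 after 24 h, 6 members passed as higher after 6 h and the 24 h split became 0 higher and 4 lower. That scaling called 60.3% of all genes at 6 h and 61.4% at 24 h, in either direction.

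**Figure D2:**
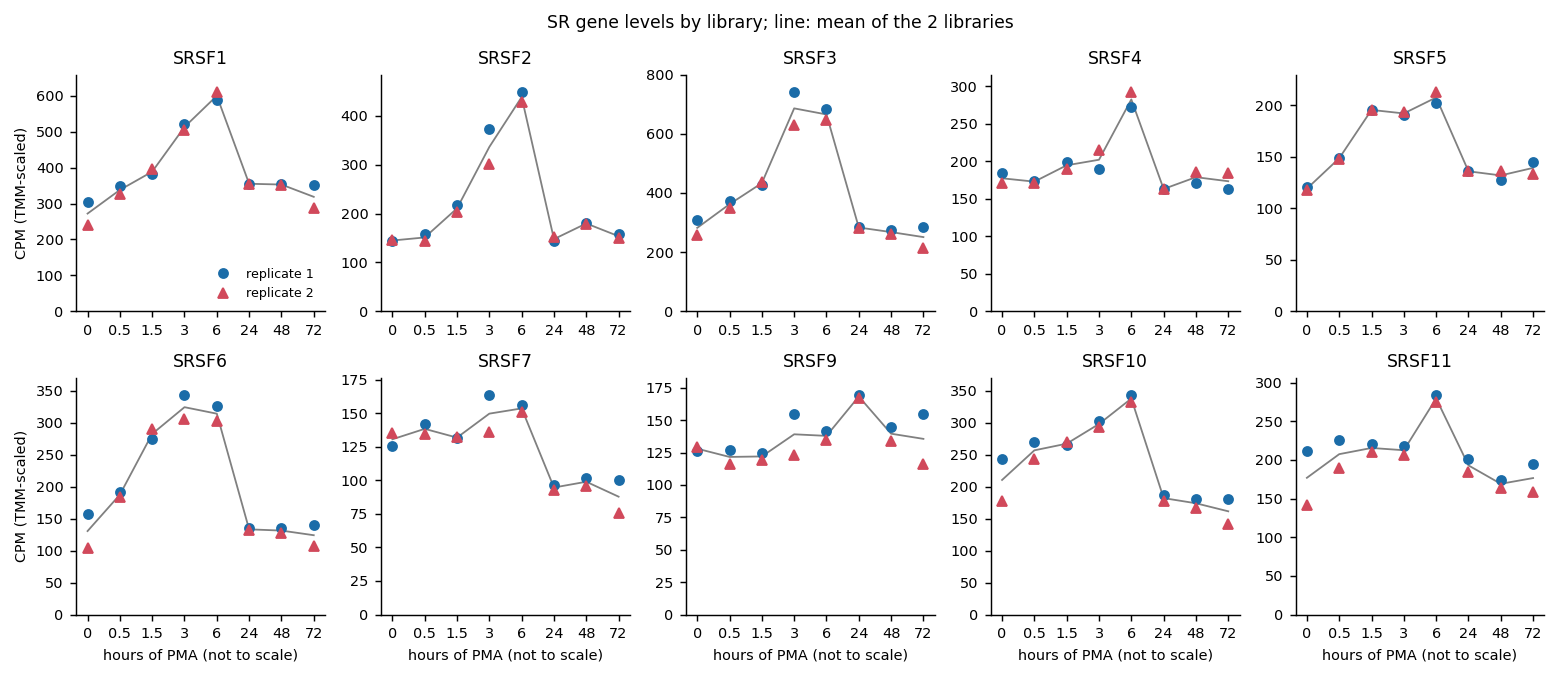
Level of each SR gene in every library. The vertical axis is TMM-scaled CPM, the horizontal axis is hours of PMA in equal steps, circles are replicate 1, triangles replicate 2 and lines join the means of the 2 libraries. SRSF1, SRSF2, SRSF3 and SRSF6 rise to a peak at 3 or 6 h, while SRSF7 and SRSF9 move little before 24 h.

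**Figure D3:**
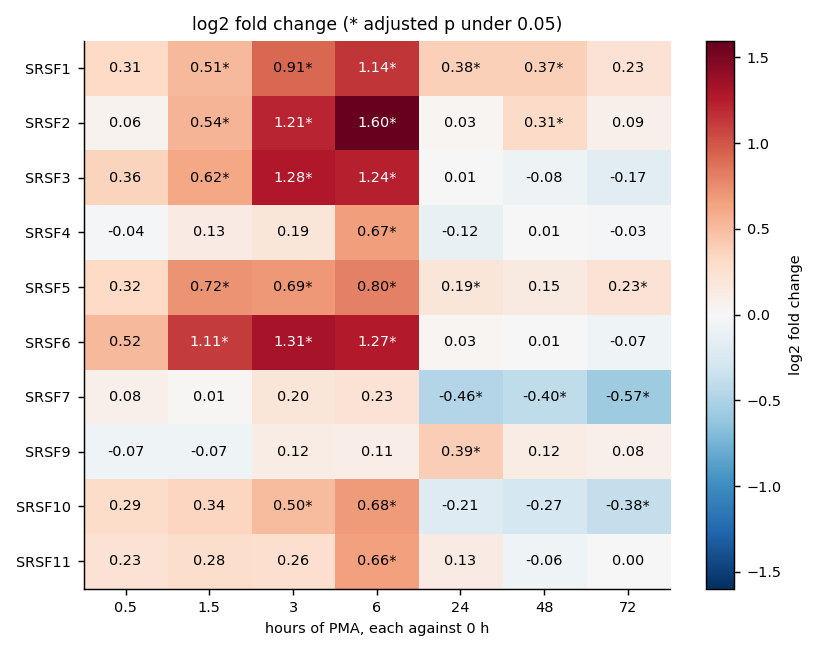
log2 fold change of each SR gene (rows) at each time (columns) against 0 h, with the number printed in each cell and an asterisk where the edgeR adjusted p was under 0.05. The largest values are 1.60 for SRSF2 after 6 h, 1.31 for SRSF6 after 3 h and 1.28 for SRSF3 after 3 h, and the called falls are those of SRSF7 at 24 to 72 h and SRSF10 after 72 h.

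SRSF2 (ENSG00000161547, chr17:76734115-76737374), which also acts in transcription elongation, made the largest move. Its libraries read 142.8 and 146.8 CPM at 0 h, 217.9 and 203.1 after 1.5 h, 371.8 and 300.3 after 3 h, 448.2 and 427.7 after 6 h, 143.6 and 151.7 after 24 h, and 158.3 and 148.9 after 72 h. Every library from 1.5 to 6 h lay above both 0 h libraries, and the 24 h pair overlapped the 0 h pair. The log2 fold change was 0.54 (SE 0.10, edgeR adjusted p = 0.00359) at 1.5 h and 1.60 (SE 0.10, edgeR adjusted p = 1.57e-08) at 6 h, and -1.57 (edgeR adjusted p = 4.51e-08) from 6 to 24 h. Without 0 h replicate 2 it was 0.56 at 1.5 h, 1.23 at 3 h and 1.61 at 6 h, all called. A small difference at 48 h (181.0 and 178.3 CPM, log2 fold change 0.31, edgeR adjusted p = 0.0195) missed the threshold without 0 h replicate 1 (0.29) or without either 48 h library (0.30 and 0.32), and was 0.15 with libraries scaled to totals and 0.64 with counts derived from TPM. Exons of SRSF2 share 1106 bases with MFSD11 on the opposite strand, and whether counting used strand is not given in the sources used here.

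SRSF3 (ENSG00000112081, chr6:36594353-36605600), the smallest SR protein and also an adaptor for mRNA export, peaked earlier. It read 307.2 and 257.0 CPM at 0 h, 428.2 and 438.3 after 1.5 h, 740.8 and 630.7 after 3 h, 682.6 and 647.6 after 6 h, and 284.6 and 281.9 after 24 h. Both libraries of each time from 0.5 to 6 h lay above the 0 h pair, within which the 24 h pair fell. The log2 fold change was 1.28 (2.43-fold, edgeR adjusted p = 3.75e-06) at 3 h and 1.24 (edgeR adjusted p = 2.14e-06) at 6 h, and without 0 h replicate 2 it was 1.16 and 1.11, both called. The call at 1.5 h (0.62, SE 0.13, edgeR adjusted p = 0.00672) was lost without 0 h replicate 2 (0.49), without 1.5 h replicate 2 (0.60) and with counts derived from TPM (0.32).

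SRSF6 (ENSG00000124193, chr20:43457928-43464247), which regulates alternative exons in several tissues, was the gene with the largest rise at 1.5 h among the 10. Its libraries read 157.0 and 104.2 CPM at 0 h, 191.7 and 183.4 after 0.5 h, 274.9 and 290.5 after 1.5 h, 343.1 and 305.8 after 3 h, 325.7 and 302.9 after 6 h, and 135.1 and 131.6 after 24 h. The 0 h libraries differed by more than those of any later time in proportion, yet every library from 0.5 to 6 h lay above both. The log2 fold change was 1.11 (SE 0.16, edgeR adjusted p = 0.000526) at 1.5 h and 1.31 (2.48-fold, edgeR adjusted p = 1.98e-05) at 3 h, then -1.24 (edgeR adjusted p = 2.26e-05) from 6 to 24 h. Without 0 h replicate 2, the lower of its pair, the values were 0.85 at 1.5 h and 1.04 at 3 h, both called.

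SRSF1 (ENSG00000136450, chr17:58003360-58007346), the founding member of the family, read 303.0 and 241.4 CPM at 0 h, 381.8 and 395.7 after 1.5 h, 522.6 and 503.7 after 3 h and 589.6 and 610.4 after 6 h. At 24 h it read 354.8 and 355.5 CPM, and at 72 h 350.6 and 287.0. The rise was clear of both 0 h libraries from 0.5 to 48 h, and the 72 h pair overlapped them. At 6 h the log2 fold change was 1.14 (SE 0.12, 2.20-fold, edgeR adjusted p = 1.27e-06), and without 0 h replicate 2 it was 0.98, still called. Smaller calls at 1.5 h (0.51, edgeR adjusted p = 0.00894), 24 h (0.38, edgeR adjusted p = 0.0108) and 48 h (0.37, edgeR adjusted p = 0.0129) were lost without 0 h replicate 2 (0.36, then 0.23, and 0.22), and each was also lost without 1 of the later libraries: 1.5 h replicate 2 (0.49), 24 h replicate 2 (0.35) or 48 h replicate 1 (0.37). With counts derived from TPM the 1.5 h value was 0.27 and did not pass, and with libraries scaled to totals the 24 h value was 0.13 and the 48 h value 0.21. An overlapping readthrough gene, AC015813.2, shares 1890 exon bases on the same strand, so reads can be split between them.

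SRSF5 (ENSG00000100650, chr14:69726900-69772005), a regulator known to respond to growth stimuli, moved early with tight replicates. It read 120.2 and 117.7 CPM at 0 h, 149.1 and 147.7 after 0.5 h, 195.4 and 195.1 after 1.5 h, 190.8 and 193.0 after 3 h, 202.1 and 212.6 after 6 h, and 135.7 and 135.9 after 24 h. All libraries after 0 h lay above both 0 h libraries. The log2 fold change had reached 0.72 (SE 0.08, edgeR adjusted p = 4.71e-05) by 1.5 h and was 0.80 (1.74-fold, edgeR adjusted p = 8.76e-07) at 6 h. These were 0.70 and 0.78 without 0 h replicate 2, both called. The call at 24 h (0.19, edgeR adjusted p = 0.0492) was lost when any of its libraries was left out and turned to -0.06 with libraries scaled to totals, and the call at 72 h (0.23, edgeR adjusted p = 0.0231) was lost without 0 h replicate 2 (0.21) or 72 h replicate 1 (0.16). With libraries scaled to totals the values were 0.41 at 3 h and 0.43 at 6 h, both called, and 0.07 at 72 h, not called.

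SRSF4 and SRSF11 had a called rise at 6 h alone among the times tested against 0 h. For SRSF11 the log2 fold changes at 0.5, 1.5, 3 and 24 h depended on the 0 h pair. They were 0.55, 0.60, 0.58 and 0.45 without 0 h replicate 1, and -0.03, 0.02, 0.002 and -0.13 without 0 h replicate 2. SRSF4 (ENSG00000116350, chr1:29147743-29181987), which has a long arginine and serine domain, stayed between 162.9 and 214.7 CPM at every time but 6 h, when it read 272.5 and 292.1. Both 6 h libraries lay above all others, with a log2 fold change of 0.67 over 0 h (SE 0.09, 1.59-fold, edgeR adjusted p = 2.93e-05). That value was 0.62 and still called without 0 h replicate 2, 0.30 with libraries scaled to totals and 1.03 with counts derived from TPM, and the latter also gave 0.39 at 72 h (edgeR adjusted p = 0.0179) where the estimated counts gave -0.03. SRSF11 (ENSG00000116754, chr1:70205682-70253052), an SR-related protein found with splice site factors, read 211.9 and 141.9 CPM at 0 h, 283.7 and 275.5 after 6 h and 201.7 and 184.4 after 24 h. The 6 h pair was the highest of the course, and the fold change was 1.58 (log2 0.66, SE 0.16, edgeR adjusted p = 0.00247). The log2 value was 0.40 and still passed without 0 h replicate 2, the lower of the pair, and was 0.29 and did not pass with libraries scaled to totals. The fall of SRSF11 to 24 h (-0.53, edgeR adjusted p = 0.0107) was lost without 6 h replicate 1 (-0.53) or 24 h replicate 2 (-0.51).

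SRSF10 (ENSG00000188529, chr1:23964804-23980927), known as a splicing repressor when it is dephosphorylated in heat shock and mitosis, read 243.3 and 177.4 CPM at 0 h, 302.6 and 293.1 after 3 h, 342.8 and 332.4 after 6 h, 187.1 and 176.9 after 24 h and 181.2 and 141.6 after 72 h. The 6 h pair stood above all other libraries of the course. The log2 fold change was 0.68 (1.60-fold, edgeR adjusted p = 0.000764) at 6 h and -0.89 (edgeR adjusted p = 0.000111) from 6 to 24 h. The 6 h value was 0.47 without 0 h replicate 2, still called. With libraries scaled to totals the 6 h value was 0.31 and did not pass, which is 0.67 above the median of all genes there. The 3 h call (0.50, edgeR adjusted p = 0.00994) was lost without 0 h replicate 2 (0.29) and with that scaling (0.22). The fall at 72 h (-0.38, edgeR adjusted p = 0.0296), where the pairs overlap, was lost without 0 h replicate 1 (-0.13) or 72 h replicate 2 (-0.21) and was -0.59 without 0 h replicate 2.

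SRSF7 and SRSF9 had no called rise by 6 h. SRSF7 (ENSG00000115875, chr2:38743599-38751494), an export adaptor like SRSF3, read 125.7 and 135.3 CPM at 0 h, 156.1 and 150.9 after 6 h, 96.5 and 92.6 after 24 h, 101.7 and 96.0 after 48 h and 99.96 and 75.6 after 72 h. All 6 libraries from 24 h lay below the 0 h pair, and the log2 fold change was -0.46 (SE 0.12, edgeR adjusted p = 0.00479) after 24 h, -0.40 (edgeR adjusted p = 0.0123) after 48 h and -0.57 (edgeR adjusted p = 0.00107) after 72 h. From 6 to 24 h it fell by 0.70 on the log2 scale (edgeR adjusted p = 0.000267). The 48 h call was lost without 0 h replicate 2 (-0.35) or 48 h replicate 2 (-0.36), and the 72 h value was -0.38 and still passed without 72 h replicate 2. SRSF9 (ENSG00000111786, chr12:120461668-120469793) kept between 116.4 and 154.9 CPM at all times but 24 h, when its libraries read 169.3 and 167.3 CPM. That difference from 126.5 and 129.6 CPM at 0 h (log2 0.39, SE 0.13, edgeR adjusted p = 0.018) was lost without 0 h replicate 1 (0.38), 24 h replicate 1 (0.39) or 24 h replicate 2 (0.37), and was 0.15 with libraries scaled to totals. Exons of SRSF9 share 1729 bases with GATC on the opposite strand. After each library's trend with GC content was removed, both genes also passed at 6 h, at 0.43 for SRSF7 and 0.48 for SRSF9, and 10 of 10 were higher there and at 3 h. That setting moved the median of all genes to 0.32 at 6 h and 0.22 at 3 h and called 62.4% and 48.7% of them. Mean TPM was instead lower at 6 h than at 0 h for both genes. It went from 226 to 170.0 for SRSF9, and from 176 to 166 for SRSF7, whose libraries overlapped. The direction at 6 h thus differed with the measure.

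Levels of different genes were compared per length, in TPM (transcript abundance scaled by length and library, mean of 2 libraries). At 0 h SRSF3 stood at 439 TPM, followed by SRSF9 at 226, SRSF5 at 193, SRSF1 at 178, SRSF10 and SRSF7 at 176, SRSF11 at 167, SRSF2 at 133, SRSF4 at 92.6 and SRSF6 at 61.4. The neighbours from SRSF1 to SRSF11 in that order overlapped between libraries. At 6 h SRSF3 remained the highest at 715 TPM, SRSF2 had moved from eighth to second place at 328, and SRSF1 came next at 311. SRSF5 was at 247, SRSF10 at 226, SRSF11 at 210.0, SRSF9 at 170.0, SRSF7 at 166 and SRSF6 and SRSF4 at 147, where SRSF10 with SRSF11 and the last 4 with their neighbours overlapped.

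The time profiles of the genes were alike to differing degrees. Over the 8 time point means of log2 CPM, the pair SRSF3 and SRSF6 had Pearson r = 0.97 and SRSF1 and SRSF2 r = 0.96, while r of SRSF9 with the other genes ran from -0.49 to 0.15. Outside the 10 genes, the 5 genes whose profile was most like the members' mean profile, among 11259 candidates, were HNRNPU (r = 0.996), TRA2A (0.992), H3-3B (0.992), HNRNPH1 (0.990) and SFPQ (0.988). HNRNPU and HNRNPH1 encode hnRNP proteins, TRA2A an SR-related splicing activator, SFPQ a nuclear RNA-binding protein and H3-3B the histone variant H3.3. These correlations describe the same 16 libraries for all genes, which share depth and scaling.

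Transcript make-up changed along with level, and parts of that change outlasted the pulse. Of the 107 transcripts, 47 held at least 5% of their gene's reads in 2 libraries and were tested by limma on the log2 odds of the share, beside 40435 transcripts in all. Shares of 16 of the 47 changed over the course (background 16.4%). Against 0 h, with at least 5 percentage points of difference and a limma adjusted p under 0.05, none were called after 0.5 h (background 0.146%) or 1.5 h (0.705%), 3 after 3 h (3.42%), 9 after 6 h (7.58%), 9 after 24 h (7.3%), 8 after 48 h (6.13%) and 5 after 72 h (7.9%). From 6 to 24 h 1 share was called (5.81%). Transcripts of 1 gene share its reads, so a rise in 1 share lowers another and the counts are not independent. Without 0 h replicate 1, 9 shares were called at 0.5 h (background 2.53%) and 6 at 1.5 h (3.76%), and a fit of only the libraries of 2 time points called none in any comparison. Salmon-type estimates divide reads between overlapping transcripts by a model, and no measure of that uncertainty was used here. The files' model of SRSF1-201 is 5343 bases long against 1513 in GENCODE 29, and the lengths of SRSF3-202, SRSF4-201, SRSF6-201, SRSF7-201 and SRSF9-201 also differ between these sources.

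**Figure D4:**
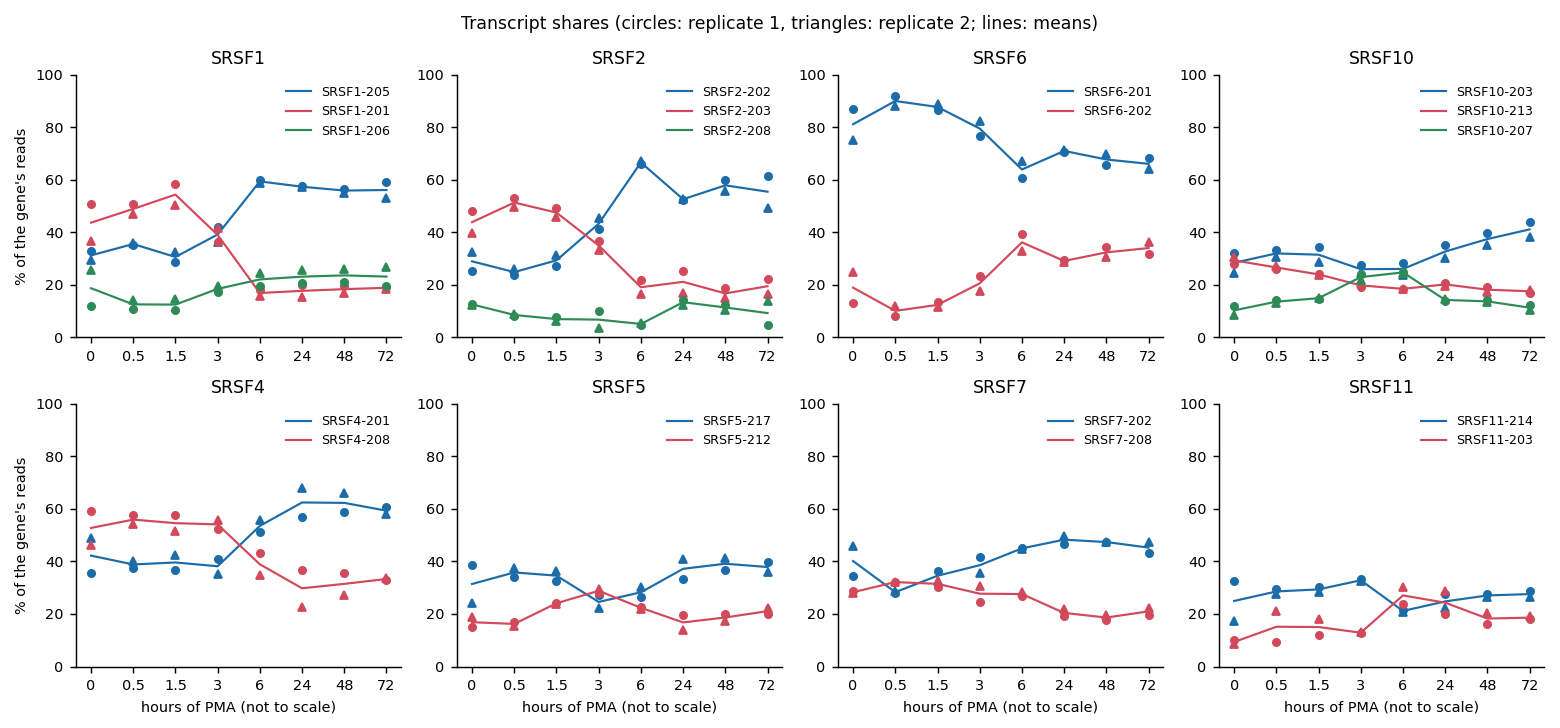
Share of the gene's estimated reads held by named transcripts in every library, for 8 SR genes. The vertical axis is percent of the gene's reads, the horizontal axis is hours of PMA in equal steps, circles are replicate 1, triangles replicate 2 and lines join means. By these read shares, which are not scaled by transcript length, SRSF1 and SRSF2 each exchange their leading transcript between 1.5 and 6 h. They do not return by 72 h, whereas SRSF10-207 peaks at 3 to 6 h and returns.

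By share of reads, which is not scaled by transcript length, SRSF1 exchanged its leading transcript. Which of its transcripts led per length at 0 h is not given here. SRSF1-205, with the shorter reading frame, held 33.0% and 29.4% of the gene's reads at 0 h, 42.0% and 36.3% after 3 h, 60.0% and 58.6% after 6 h and 59.1% and 53.0% after 72 h. SRSF1-201, which encodes the full-length protein, held 50.6% and 36.7% at 0 h, 36.4% and 41.5% after 3 h, 18.2% and 15.5% after 6 h and 19.2% and 18.5% after 72 h. The libraries from 6 h on were clear of all those up to 3 h for both transcripts. SRSF1-205 rose by 28.1 percentage points at 6 h (limma adjusted p = 0.000565) and was still 24.9 points higher at 72 h (limma adjusted p = 0.00106). SRSF1-201 fell by 26.8 points at 6 h (limma adjusted p = 0.00343) and was 24.8 points lower at 72 h (limma adjusted p = 0.00584). In mean CPM, SRSF1-205 went from 85.5 at 0 h to 356 after 6 h and 180 after 72 h, and SRSF1-201 from 121 to 101 and 60.2. The decay-class SRSF1-206 held 11.9% and 25.5% at 0 h and 19.6% and 24.5% at 6 h, which overlap. Of these calls, that of SRSF1-201 at 48 h was lost without 48 h replicate 2 (-24.0 points). Shares of TPM gave smaller falls of SRSF1-201 (-12.2 points at 6 h, -11.4 at 72 h), still called, in which the longer model in the files enters.

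SRSF2 shifted to the spliced form of its 3′ untranslated region. SRSF2-202, which removes the 995-base intron, held 25.3% and 32.5% of reads at 0 h, 41.1% and 45.4% after 3 h, 66.1% and 67.0% after 6 h, 52.4% and 52.7% after 24 h and 61.5% and 49.4% after 72 h. SRSF2-203, which keeps it, went from 48.0% and 39.6% at 0 h to 21.7% and 16.5% after 6 h and 22.3% and 16.6% after 72 h. For both transcripts the libraries from 6 h on were clear of the 0 h pair. SRSF2-202 rose by 37.6 points after 6 h (limma adjusted p = 0.000587) and was 26.5 points higher after 72 h (limma adjusted p = 0.00403), while SRSF2-203 fell by 24.8 points after 6 h (limma adjusted p = 0.00797) and was 24.4 points lower after 72 h (limma adjusted p = 0.00847). Mean CPM of SRSF2-202 was 41.9 at 0 h, 291 after 6 h and 85.4 after 72 h, and that of SRSF2-203 was 63.4, 83.8 and 30.0, with 118 after 3 h. Calls were lost for SRSF2-202 after 24 h without 24 h replicate 2 (23.4 points), and for SRSF2-203 after 6 h without 6 h replicate 2 (-22.2) and after 24 h without 0 h replicate 1 (-18.5) or 24 h replicate 2 (-18.4). With shares of TPM the differences of SRSF2-202 at 24 to 72 h (16.2 to 18.5 points) did not pass, and of those of SRSF2-203 the 48 h value (-17.8) did.

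SRSF6 gained the poison exon transcript at 6 h. SRSF6-202 held 13.0% and 24.8% of reads at 0 h, 8.1% and 12.1% after 0.5 h, 13.3% and 11.4% after 1.5 h, 23.4% and 17.7% after 3 h, 39.5% and 32.8% after 6 h and 31.9% and 36.1% after 72 h. All libraries from 6 h on lay above both 0 h libraries, and SRSF6-201, the only other transcript, held the rest. In CPM the coding SRSF6-201 peaked after 3 h (107 at 0 h, 257 after 3 h, 200.3 after 6 h), and SRSF6-202 after 6 h (23.1 at 0 h, 114 after 6 h, 41.8 after 72 h). The rise of 17.2 points at 6 h just passed (limma adjusted p = 0.0486) and was lost without 0 h replicate 1 (11.3), 6 h replicate 1 (13.9) or 6 h replicate 2 (20.6), and with shares of TPM (22.6).

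SRSF10 showed a shift that came and went with its level. SRSF10-207, with the short last coding exon, held 12.01% and 8.5% at 0 h, 24.0% and 21.8% after 3 h, 24.9% and 24.5% after 6 h, 13.7% and 14.7% after 24 h and 12.3% and 10.3% after 72 h. Only the 3 h and 6 h libraries exceeded 20% among the 16. It rose by 12.7 points at 3 h (limma adjusted p = 0.00369) and 14.5 points at 6 h (limma adjusted p = 0.00122), both kept when any library was left out. It fell by 10.5 points from 6 to 24 h (limma adjusted p = 0.0156), and that call was lost without each of its 4 libraries in turn (-9.97 to -11.0 points). SRSF10-213, a retained intron transcript, held 28.1% and 30.5% at 0 h, 18.6% and 18.3% after 6 h and 17.1% and 18.0% after 72 h, a fall of 10.8 points after 6 h (limma adjusted p = 0.00381) and 11.8 after 72 h (limma adjusted p = 0.0021). Its calls at 3 h (-9.52) and 24 h (-9.15) were lost without 0 h replicate 2 (-8.31, and -7.94), 3 h replicate 1 (-8.73) or 24 h replicate 2 (-8.63), and shares of TPM gave differences of -4.05 to -5.13 points from 3 to 72 h. SRSF10-203 held 32.2% and 24.5% at 0 h and 43.8% and 38.3% after 72 h, and SRSF10-204 held 11.9% and 7.1%, then 7.4% and 7.6%, with no call at any time.

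SRSF4 lost reads from its long intron-retaining transcript late in the course. SRSF4-208, which keeps an intron of 888 bases (chr1:29159487-29160374, minus strand) in 8128 bases, held 59.3% and 46.1% at 0 h, 43.0% and 34.8% after 6 h, 36.8% and 22.7% after 24 h and 32.9% and 33.7% after 72 h. The coding SRSF4-201 held 35.6% and 48.8% at 0 h, 57.0% and 67.8% after 24 h and 60.7% and 57.9% after 72 h. The pairs from 24 h on were clear of the 0 h pair. SRSF4-208 fell by 23.0 points after 24 h (limma adjusted p = 0.0379), and SRSF4-201 rose by 20.2 points after 24 h (limma adjusted p = 0.0397) and 20.1 after 48 h (limma adjusted p = 0.0462). The 24 h calls were lost without 0 h replicate 1 (-16.4 points, and 13.6) or 24 h replicate 2 (-15.9, and 14.8), and the 48 h call without 0 h replicate 1 (13.4) or either 48 h library (23.7 and 16.4). With shares of TPM SRSF4-208 was 10.6 points lower at 24 h, which passed, and SRSF4-201 7.05 points higher, which did not.

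In the other genes single transcripts moved at single times. The intron-retaining SRSF5-212 held 15.1% and 18.7% of SRSF5 reads at 0 h and 27.98% and 29.6% at 3 h, a rise of 11.9 points (limma adjusted p = 0.0301), and its level went from 20.1 to 55.3 CPM. That call was lost without 0 h replicate 1 (10.1), 3 h replicate 1 (12.8) or 3 h replicate 2 (11.1), and was 6.29 points with shares of TPM. SRSF7-208, the decay-class transcript, went from 28.6% and 27.9% at 0 h to 17.7% and 19.6% at 48 h (-9.65 points, limma adjusted p = 0.0274), lost without any 1 of the 4 libraries (-8.70 to -10.6) and with shares of TPM (-6.13). The coding SRSF9-201 held 81.9% and 82.5% at 0 h, 87.1% and 89.1% after 24 h and 88.4% and 87.6% after 48 h, rises of 5.90 (limma adjusted p = 0.029) and 5.80 points (limma adjusted p = 0.0355). The 24 h value was lost without either 0 h library or 24 h replicate 2 (4.89 to 6.21 points), the 48 h value without any 1 of its 4 libraries, and both with shares of TPM (9.32 and 9.57 points). SRSF11-203, a coding transcript of 483 codons, held 10.1% and 8.6% at 0 h, 23.8% and 30.3% after 6 h and 19.8% and 28.8% after 24 h, rises of 17.7 (limma adjusted p = 0.0276) and 14.96 points (limma adjusted p = 0.0445), each lost without any 1 of the 4 libraries (14.5 to 21.0 and 10.5 to 19.5 points).

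SRSF3 rose with no called change of make-up. In simulated data the share test found 29% of 4-fold and 82% of 16-fold changes in odds at 6 h. A missing call therefore does not show an unchanged share. SRSF3-202, 1 of its 2 coding transcripts, held 32.1% and 20.5% at 0 h and 28.02% and 30.6% at 6 h. The retained intron SRSF3-207 held 25.7% and 13.9%, then 22.8% and 25.7%, and the coding SRSF3-208 held 19.5% and 28.2%, then 20.8% and 18.6%. For all 3 transcripts the 0 h and 6 h pairs overlap, and the 0 h libraries differ more from each other than the 6 h ones. SRSF3-203, the poison exon transcript, named here for its sequence and outside the naming rule, held 4.6% and 7.0% at 0 h and 8.3% and 7.6% at 6 h. These pairs were clear of each other, without a call, and the mean level of SRSF3-203 went from 16.1 to 53.0 CPM. Other named transcripts had no call: SRSF5-217 (38.7% and 24.1% at 0 h, 27.05% and 22.1% after 3 h), SRSF7-202 (34.4% and 45.8%, then 45.2% and 44.7% after 6 h), SRSF7-201 (18.9% and 11.2%, then 11.9% and 11.1% after 6 h), SRSF11-214 (32.4% and 17.5%, then 21.4% and 20.9% after 6 h), SRSF11-201 (9.30% to 19.8% over all libraries) and SRSF11-202 (4.29% to 19.4%). The remaining 81 of the 107 transcripts averaged at most 9.23% of their gene's reads, and the highest share of any of them in a library was 25.0%, in SRSF11.

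Summed by annotated class, the reads on transcripts not annotated as protein coding moved in different directions in different genes. Over the course 6 of the 10 changed (background 33.1% of 8775 genes). None was called at 0.5 h (0.0912% of genes higher and 0.0456% lower) or 1.5 h (0.934% and 1.73%). At 6 h 2 rose and 2 fell (backgrounds 6.68% and 5.11%), after 3 h 1 and 1 (2.55% and 7.21%), after 24 h none and 3 (2.84% and 16.1%), after 48 h none and 3 (2.01% and 12.9%), after 72 h 1 and 2 (2.8% and 14.1%), and from 6 to 24 h 1 and 3 (1.9% and 15.6%). In SRSF5 they held 37.7% and 39.6% at 0 h, 53.6% and 56.0% after 3 h, 53.9% and 50.3% after 6 h and 42.0% and 35.0% after 24 h, a rise of 16.2 points after 3 h (limma adjusted p = 0.0105) and of 13.5 after 6 h (limma adjusted p = 0.0208). In SRSF6, where the class is SRSF6-202 alone, the rise at 6 h was 17.2 points (limma adjusted p = 0.0306). In SRSF2 they went from 26.6% and 25.0% at 0 h to 12.2% and 14.9% after 6 h and back to 22.3% and 22.8% after 24 h (-12.2 points after 6 h, limma adjusted p = 0.00908). SRSF10 fell from 38.2% and 44.2% at 0 h to 27.3% and 28.3% after 6 h and 24.7% and 28.9% after 72 h (-14.4 points after 72 h, limma adjusted p = 0.00561). SRSF7 went from 44.5% and 39.5% at 0 h to 29.3% and 31.1% at 24 h (-11.8 points, limma adjusted p = 0.0127), and SRSF4 from 64.3% and 50.4% to 42.1% and 27.7% (-22.5 points, limma adjusted p = 0.0219). With each library left out in turn these differences ran from 14.97 to 17.4 points for SRSF5 at 3 h (lost without 3 h replicate 2) and 11.7 to 15.2 at 6 h (lost without any of the libraries), and from 11.3 to 23.2 for SRSF6 (lost without 0 h replicate 1 or either 6 h library). They ran from -13.6 to -10.9 for SRSF2 (lost without 6 h replicate 1), from -14.3 to -9.32 for SRSF7 (lost without 0 h replicate 1 or either 24 h library) and from -29.7 to -15.3 for SRSF4 (lost without 0 h replicate 1 or 24 h replicate 2). Of the 19 class calls only that of SRSF10 at 72 h was kept when each library was left out in turn, against 17 of 35 for transcript shares and 26 of 38 for gene levels.

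**Figure D5:**
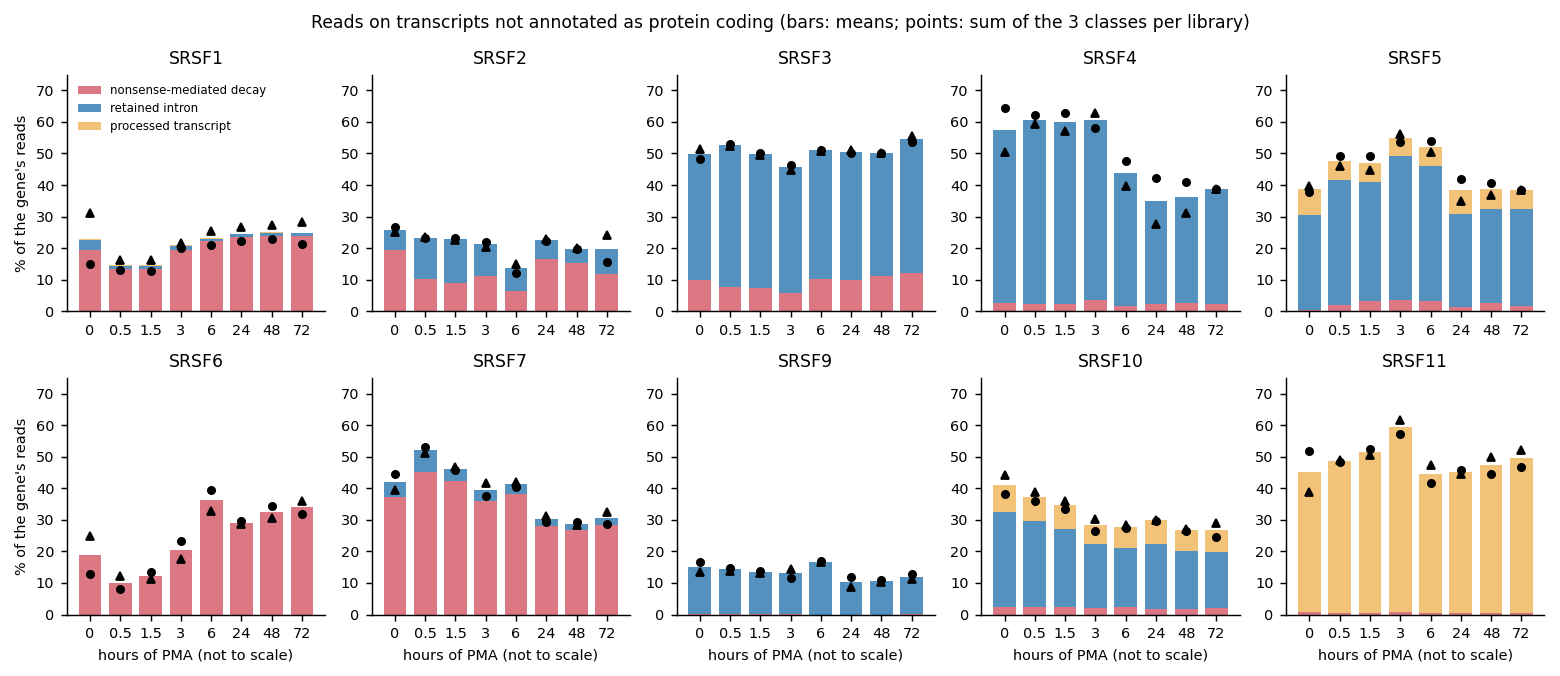
Percent of each SR gene's estimated reads on transcripts that are not annotated as protein coding, by hours of PMA in equal steps. Stacked bars are means of the 2 libraries for the nonsense-mediated decay, retained intron and processed transcript classes, and points are the sum in each library (circles replicate 1, triangles replicate 2). SRSF5 peaks at 3 to 6 h, SRSF6 rises at 6 h and stays high, SRSF10 is lower from 3 h on, and SRSF4 and SRSF7 are lower at 24 to 72 h.

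Genes that work with the SR proteins were read from lists chosen with the members known, beside a background of 27.8% of all genes higher and 29.4% lower at 6 h and a median of 0.00. The shares of all genes were 9.05% higher and 8.05% lower after 1.5 h, and 21.5% higher and 20.5% lower after 3 h. They were 30.8% higher and 25.8% lower from 6 to 24 h, and 31.7% higher and 26.9% lower at 72 h. Of 26 other SR and SR-related genes, 8 rose after 1.5 h, 11 after 3 h and 17 after 6 h with none lower at these times (median log2 fold change 0.54 after 6 h), and 16 fell from 6 to 24 h while 1 rose. SRRM2, a large scaffold protein of nuclear speckles and the most abundant of them, rose by 0.94 (edgeR adjusted p = 4.66e-06) and SON, another speckle scaffold, by 1.22 (edgeR adjusted p = 1.09e-07) on the log2 scale at 6 h. Among 19 kinases, phosphatases and import factors of SR proteins 11 rose and 4 fell at 6 h (median 0.49). CLK1, a kinase of the arginine and serine domain, went from 32.7 to 112 CPM (log2 fold change 1.77, edgeR adjusted p = 1.12e-07), and TNPO1, a nuclear import receptor, rose by 1.14 (edgeR adjusted p = 6.47e-05). Of 28 hnRNP genes, whose products often oppose SR proteins, 15 rose and 5 fell at 6 h (median 0.39), and 2 rose and 11 fell at 72 h. HNRNPA1, an antagonist of SRSF1 at many exons, fell by 1.02 at 72 h (edgeR adjusted p = 4.12e-06), and HNRNPLL fell by 1.18 at 6 h (edgeR adjusted p = 9.00e-07). Of 18 nonsense-mediated decay factors 8 rose and 2 fell at 6 h (median 0.29). SMG1, the kinase of that pathway, rose by 1.15 (edgeR adjusted p = 3.37e-06), with the limit that near-identical SMG1 copies in the genome can share its reads.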

How the data were processed

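The deposited tables give, per the file headers, salmon columns for each transcript and library: estimated counts (NumReads, not normalized) and TPM (scaled by the authors' quantification to effective length and library size). Salmon, Trim Galore 0.4.3, HISAT2 2.1.0, SAMtools 1.9, deepTools 3.0.1, R 3.3.1 and DESeq2 are named in the submitters' processing notes with no role or order; options, index and the roles of the listed builds hg19 and hg38 are not given in the sources used here. From these files, 94.1% of transcripts were matched by identifier to GENCODE 29, and the 10429 unmatched ones (3.01% to 3.75% of reads) were left out. Counts were summed per gene, rounded, filtered with filterByExpr (17559 genes kept, all 10 members among them) and fitted over all 8 time points with edgeR 4.0.16 (R 4.3.3, TMM, quasi-likelihood, common biological coefficient of variation 0.123, 8 residual degrees of freedom). Transcript and class shares were fitted with limma 3.58.1 as log2 odds with 0.5 reads added, in genes with at least 100 reads on average, and class shares with at least 10 reads per class. P-values were Benjamini-Hochberg adjusted over all features of a comparison. DESeq2 1.42.0, other scalings, filters, a GC offset, shares of TPM and leaving out each library were alternatives. Programs were tested on simulated data. Figures used matplotlib 3.10.9. Sequences were read from GENCODE 29 transcripts. Named transcripts hold a mean share of at least 10% or were called in any comparison. From each list the most abundant gene and the gene with the largest called change were named, and 5 genes by profile. 1 gene that this rule names is not reported here. The members and lists were chosen with earlier results of these data known. Library totals were 27285773 to 54056289 estimated reads.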

Additional observations from a re-analysis of the deposited data

How the results depend on the processing

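Of the counts of members called, 269 stayed within 1.5 times the main value over the alternatives and 69 did not. Of 1753 single values, 1460 kept direction and side of the threshold, 242 lost and 48 gained a call, and 3 turned: SRSF5 at 24 h (-0.057) and SRSF2 at 24 h (-0.22) with libraries scaled to totals, and SRSF4 at 72 h (0.39) with counts from TPM. The cause was not tested. Genes called went from 0 to 1 at 0.5 h with no filter (5.72% of all genes called) and with DESeq2 (0.689%). With counts from TPM they went from 5 to 3 at 1.5 h (12.9%) and from 3 to 5 at 72 h (52.6%). With the GC trend removed, with or without the block, they went from 6 to 10 at 3 h, where 50.5% and 48.7% of all genes were called. The median of all genes moved to 0.22 there. A threshold of 0.01 left 1 gene at 24 h (45.3% of all genes), 0 at 48 h (43.2%) and 1 at 72 h (47.3%). A fit of the compared libraries alone left 2 (54.6%), 1 (51.5%) and 1 (47.2%) at these times. For the member counts from here to the end of the paragraph, the share of all features called under the same setting is not given. They describe how calls moved with the processing, not how the members compared with all features. For shares, a threshold of 0.01 left 9 over the course, 1 at 3 h, 3 at 24 h, 5 at 48 h and 0 from 6 to 24 h. Shares of TPM gave 5 at 24 h, 5 at 48 h and 0 from 6 to 24 h, where diffSpliceDGE gave 0, and a fit of the compared libraries alone gave 0 at each of 3, 6, 24, 48 and 72 h and from 6 to 24 h. Class shares of TPM gave 2 calls from 6 to 24 h. Leaving out each library gave 8 to 10 genes over the course, then 0 to 6, 3 to 7, 5 to 7, 8 to 8, 1 to 4, 1 to 2 and 2 to 3 at 0.5 to 72 h, and 8 to 9 from 6 to 24 h. For shares it gave 12 to 20, then 0 to 9, 0 to 6, 1 to 6, 5 to 9, 2 to 9, 4 to 9, 5 to 9 and 0 to 0, and for class shares 5 to 7, then 0 to 1, 0 to 1, 1 to 3, 0 to 2, 0 to 3, 1 to 3, 1 to 4 and 0 to 2. Replicate numbers were not taken to pair the samples, since r of deviations ran from -0.296 to 0.598 over 28 pairs of time points and was over 0.1 in 24 of the 28, not in all, and the labels name nothing shared by a number. Still, by effective lengths, fragments were longer in replicate 2 than in replicate 1 at every time after 0 h, and shorter at 0 h. A difference between libraries thus ran with the number, and its source was not tested. With the replicate number as a block, share calls went from 5 to 10 at 72 h and from 1 to 3 from 6 to 24 h. With 2 libraries a time point, differences near the spread of the 0 h pair were not resolved.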

Other observations

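Counts for the other splicing factor lists are given beside the shares of all genes, which after 6 h were 27.8% higher and 29.4% lower, after 24 h 31.7% higher and 26.6% lower, and after 72 h 31.7% higher and 26.9% lower. Of 17 genes for recognition of the 3′ splice site and the U2 particle, 5 rose and 4 fell at 6 h, near the shares of all genes, and 8 rose and 3 fell at 24 h, where SF3B3, a subunit of SF3B, rose by 0.65 on the log2 scale (edgeR adjusted p = 5.32e-05). U2AF1, which binds the AG of the 3′ splice site, fell by 1.30 at 72 h (edgeR adjusted p = 0.000103), with the limit that a near-identical annotated copy can share its reads. Of 10 U1 genes 5 rose and 2 fell at 6 h, and 1 rose and 5 fell at 72 h, when SNRPA, a U1 protein, fell by 1.66 (edgeR adjusted p = 4.51e-07). Of 15 tissue-type regulators with enough reads, from 18 listed, 4 rose and 3 fell at 6 h, also near those shares. MBNL1, the most abundant, rose by 0.40 at 1.5 h (edgeR adjusted p = 0.0328). Its libraries read 379.5 and 294.6 CPM at 0 h and 418.7 and 468.7 at 1.5 h. The lower 0 h value is that of replicate 2, and no MBNL1 value without that library is given. KHDRBS3 went from 0.409 to 2.22 CPM at 6 h (log2 2.43, edgeR adjusted p = 3.06e-05).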
